A study of Mus musculus with 21 samples.

Results

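The 8 genes described here, Pcnt, Cdk5rap2, Akap9, Nin, Cep152, Aspm, Pcm1 and Cep290, encode large scaffold proteins of the centrosome, the spindle pole and the base of the cilium. They were chosen by gene symbol with the measured ribosome-bound and total RNA levels of these same libraries already known, so their differences between ribosome-bound and total RNA are described by their values, ratios and fitted differences, with no p-value and no call. All 8 of 8 symbols were found among the 23827 rows of the expression tables, and all 8 passed the filter of at least 1 read in every comparison.

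The libraries come from mouse embryos at embryonic day 14.5 that carry a Rosa26 allele in which Cre switches on the ribosomal protein Rpl10a fused to mCherry, under the ubiquitous CAGGS promoter. Beads against the fluorescent tag then pull down the ribosomes of the cells that carried Cre, a method called translating ribosome affinity purification (TRAP), and the RNA on those ribosomes was called the translatome. Total RNA of the same tissue homogenate was called the transcriptome. The design asks how the ribosome-bound RNA of a tissue differs from its total RNA, and which RNAs are enriched on the ribosomes of a marked cell population.

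There were 7 groups of 3 samples, and every embryo was heterozygous for the mCherry-Rpl10a allele and for a Cre driver (Sox2Cre+/-, Cdh5CreERT2+/- or Emx1Cre+/-). The forebrain transcriptome, forebrain translatome, kidney transcriptome and kidney translatome came from Sox2Cre embryos, in which all epiblast derivatives carry the tag. The brain and kidney endothelial cell (EC) translatomes came from Cdh5CreERT2 embryos, whose dams had received tamoxifen by gavage. The Emx1-lineage translatome came from Emx1Cre embryos and covers the dorsal telencephalon. Brains or kidneys of more than 1 embryo were pooled for a sample, the allele derives from 1 targeted embryonic stem cell clone, and no group without Cre was analysed here, so RNA that sticks to the beads cannot be told apart from ribosome-bound RNA.

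The centrosome is the main microtubule-organising centre of animal cells and consists of a pair of centrioles in a protein matrix, the pericentriolar material. Pericentrin and CDK5RAP2 are long coiled-coil proteins of that matrix and hold the gamma-tubulin complexes from which microtubules grow, and pericentrin mRNA is known to travel to the centrosome while it is being translated. Loss of several of these scaffolds causes microcephaly or dwarfism in patients, and in endothelial cells the centrosome is best known for its position during migration and lumen formation.

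All 8 genes have long transcripts. The transcript length implied by the reads and the RPKM of each row (RPKM, reads per kilobase of transcript, scaled to a common number of mRNA reads) ran from 5648 bases for Cdk5rap2 to 12203 for Akap9, against a median of 2869 over the 12746 mRNA rows with a mean RPKM of at least 1. Only 12.9% of those rows were at least as long as the shortest member. Pcnt (NM_008787) lies on the minus strand of GRCm38 at chr10:76351263-76442786 and has 42 exons and a coding sequence for 2916 residues in GENCODE vM21. Akap9 (NM_194462) lies at chr5:3928054-4081310 on the plus strand, with 48 exons and 3779 residues, and Cdk5rap2 (NM_145990) at chr4:70216856-70410443 on the minus strand, with 37 exons and 1822 residues. Nin lies at chr12:70011435-70113717 (minus), Cep152 (NM_001081091) at chr2:125563088-125625113 (minus), Aspm (NM_009791) at chr1:139454772-139494091 (plus), Pcm1 (NM_023662) at chr8:41239752-41332344 (plus) and Cep290 (NM_146009) at chr10:100487558-100574840 (plus). Each is annotated as protein coding.

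Promoter sequences of 3 members are shown because these genes stand for the different patterns described further on: Pcnt was higher in the ribosome-bound RNA of both organs, Cdk5rap2 had the largest endothelial difference of the 8, and Aspm, a gene of the spindle pole, had group means that spanned less than those of most members. Each run is from RefSeq (GRCm38.p6), from 250 bases before to 50 bases after the transcription start site, 5′ to 3′ on the gene's own strand. For Pcnt the RefSeq start site lies upstream of the gene coordinates given above, so its whole window lies outside them. Capitals mark matches, on either strand, to the CHR motif TTTGAA of cell-cycle genes and to the CCAAT box.
Pcnt, minus strand, chr10:76442863-76443162: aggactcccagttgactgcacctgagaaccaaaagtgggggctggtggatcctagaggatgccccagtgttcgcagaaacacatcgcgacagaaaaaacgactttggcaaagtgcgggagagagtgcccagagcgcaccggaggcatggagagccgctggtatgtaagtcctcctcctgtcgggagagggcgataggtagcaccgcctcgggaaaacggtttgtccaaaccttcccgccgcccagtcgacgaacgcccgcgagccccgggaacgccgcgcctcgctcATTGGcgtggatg
Cdk5rap2, minus strand, chr4:70410386-70410685: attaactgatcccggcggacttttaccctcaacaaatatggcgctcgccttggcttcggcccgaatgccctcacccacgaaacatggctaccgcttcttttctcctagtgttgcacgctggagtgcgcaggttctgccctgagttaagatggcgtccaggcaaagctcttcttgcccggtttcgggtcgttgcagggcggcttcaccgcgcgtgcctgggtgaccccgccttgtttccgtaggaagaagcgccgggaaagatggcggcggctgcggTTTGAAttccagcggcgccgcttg
Aspm, plus strand, chr1:139454523-139454822: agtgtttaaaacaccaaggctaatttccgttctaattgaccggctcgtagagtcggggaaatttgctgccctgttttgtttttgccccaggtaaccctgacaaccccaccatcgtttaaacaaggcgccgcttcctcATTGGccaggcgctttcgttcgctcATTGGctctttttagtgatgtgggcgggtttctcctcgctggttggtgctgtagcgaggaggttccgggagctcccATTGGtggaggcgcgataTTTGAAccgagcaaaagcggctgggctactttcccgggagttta

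The Aspm promoter holds the CHR motif 6 bases after the start site and 3 reversed CCAAT boxes before it, whereas Pcnt holds a single reversed CCAAT box and Cdk5rap2 a single CHR motif in this window. Of 32851 promoters of the same length, 17.9% hold TTTGAA, 37.4% hold CCAAT and 8.9% hold the ETS motif CCGGAAG, which none of these 3 windows holds. A match is a description of the letters and not of a bound factor.

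The files sum to between 21760652 and 79231692 reads per library, and the members were read from 269 times (Cep152 in a forebrain translatome library) to 68733 times (Pcnt in a kidney EC library). The 8 endothelial markers summed to 2176 to 2228 RPKM in brain EC and 1935 to 2285 in kidney EC, against 117 to 133 and 355 to 378 in the whole-organ translatomes. Neural markers were still present in brain EC, at 705 to 860 RPKM for 6 genes against 2072 to 2095 in the forebrain translatome, and kidney markers in kidney EC, at 68.1 to 83.3 against 335 to 374. By edgeR at an adjusted p under 0.001, 4 of the 6 neural genes were lower in brain EC and 1, Nes, was higher. Over all genes these shares were 21.4% and 24.8%. Nes was also higher in kidney EC, at 142 against 53.7 RPKM, so the neural sum is not a measure of neural RNA alone. According to the sample list of the study, each EC group and the Emx1-lineage group was sequenced in a lane of its own, so for these comparisons lane and group cannot be told apart.

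Pericentrin spanned the widest range of the 8 members. Pcnt stood at 9.46, 7.90 and 8.43 RPKM in the 3 forebrain transcriptome samples and at 36.6, 30.6 and 29.7 in the 3 forebrain translatome samples. In the kidney it stood at 13.3, 13.3 and 13.1 in the transcriptome and at 63.4, 57.3 and 54.1 in the translatome. The Emx1-lineage samples held 29.8, 35.9 and 30.6, the brain EC samples 50.4, 46.8 and 42.8, and the kidney EC samples 169.2, 125.6 and 145.3. Every translatome sample was thus above every transcriptome sample, and the kidney EC mean of 147 ± 21.9 RPKM (SD, n = 3) was 17.1 times that of the forebrain transcriptome, 8.59 ± 0.796. In the order of the group means (kidney EC, kidney translatome, brain EC, forebrain translatome, Emx1 lineage, kidney transcriptome, forebrain transcriptome) each group was clear of the next in all samples, except that the forebrain and Emx1-lineage translatomes overlapped.

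**Figure D1:**
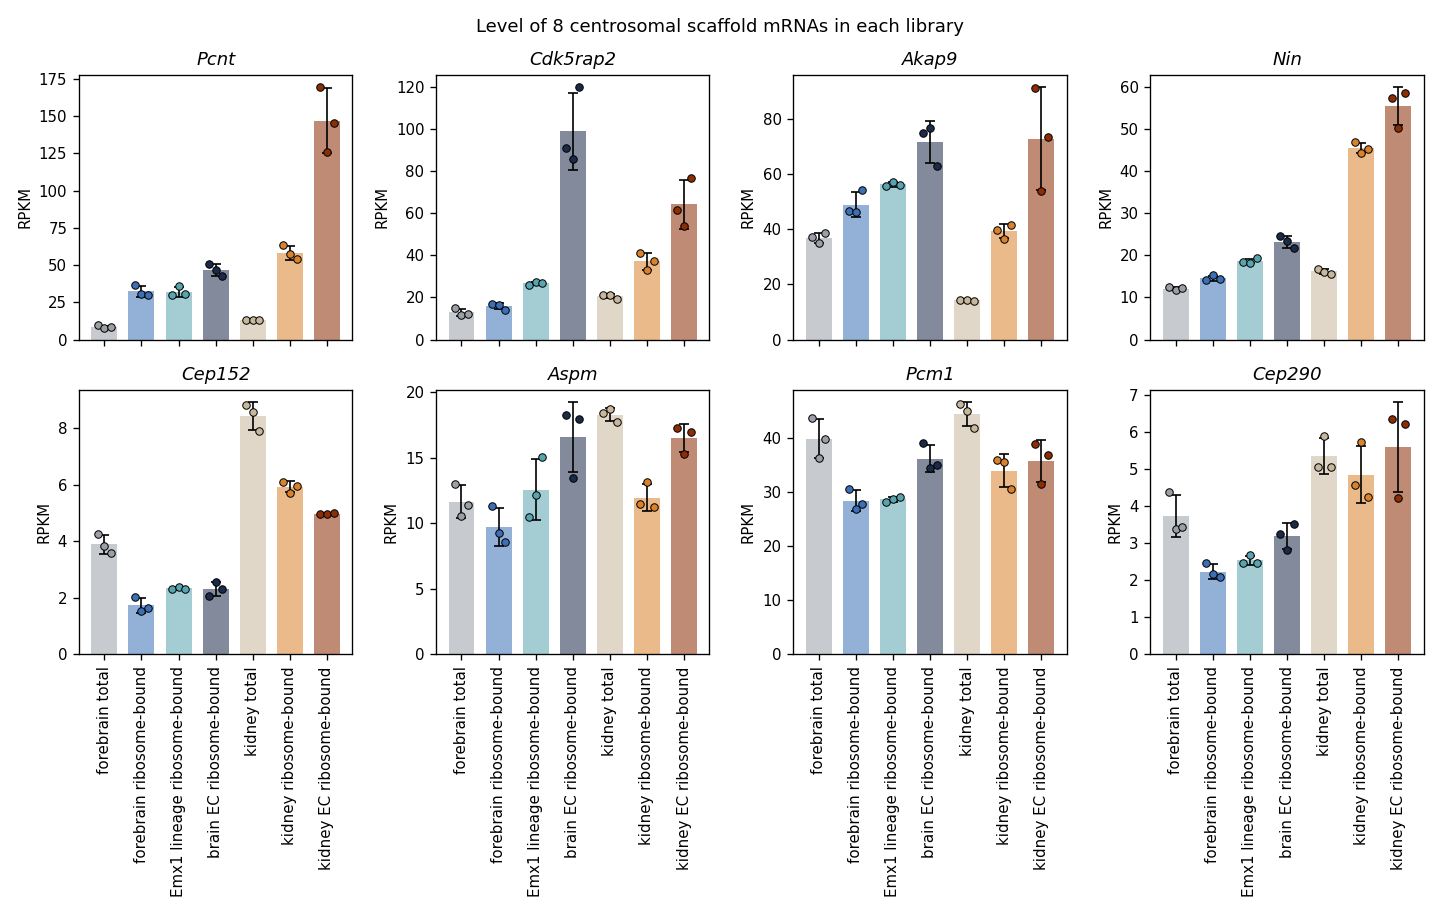
RPKM of the 8 scaffold mRNAs (vertical axes, linear from 0) in the 7 groups. Points are the 3 samples of a group, bars their mean and whiskers the SD. Pcnt is lowest in both transcriptomes and highest in kidney EC at 125.6 to 169.2 RPKM, Cdk5rap2 is highest in brain EC, and the group means of Pcm1 and Aspm span 1.56 and 1.88 times.

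Transcriptome and translatome of the same number came from the same tissue sample, so the ratio can be taken within each sample. For Pcnt the ribosome-bound RPKM was 3.87, 3.87 and 3.53 times the total RPKM in the forebrain samples and 4.77, 4.33 and 4.14 times in the kidney samples. In the forebrain pair of sample 1, and likewise in the kidney pair of sample 3, the transcriptome and translatome libraries had shared a lane, with ratios of 3.87 and 4.14, the second being the lowest of the kidney samples. With edgeR, in fits that did not use this pairing, the differences were 1.94 (SE 0.08) and 2.14 (SE 0.06) on the log2 scale. These are rank 423 of 19446 genes in the forebrain and rank 383 of 19336 in the kidney. Long transcripts as a class went the other way: over the 1844 and 1845 mRNA rows at least as long as the shortest member, the median difference was −0.37 in the forebrain and −0.18 in the kidney.

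Akap9 and Cdk5rap2 followed Pcnt in the kidney more than in the forebrain. Akap9, an anchoring protein for protein kinase A at the centrosome and Golgi, had ribosome-bound to total ratios of 2.81, 2.52 and 2.94 in the kidney and of 1.25, 1.31 and 1.40 in the forebrain. Cdk5rap2 had ratios of 1.93, 1.55 and 1.91 in the kidney and of 1.14, 1.43 and 1.15 in the forebrain, where its translatome and transcriptome samples overlapped. Both genes were above 1 in all 6 tissue samples, and for both the lowest kidney ratio exceeded the highest forebrain ratio.

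Ninein, which anchors microtubules at the subdistal appendages of the mother centriole, showed the widest gap between the organs. Its ratios were 2.78, 2.77 and 2.91 in the kidney against 1.12, 1.31 and 1.19 in the forebrain. The Nin row joins 2 RefSeq transcripts, NM_001081453 and NM_008697, whose GENCODE counterparts are 9675 and 6708 bases long. The length implied by its reads and RPKM was 8041 to 8297 bases in the forebrain translatome and 8001 to 8133 in the Emx1 lineage, against 8909 to 9658 in the forebrain transcriptome, 9028 to 9664 in brain EC and 9058 to 10027 over the 3 kidney groups. The row of Nin was therefore scaled by a shorter implied length in the neural ribosome-bound libraries than elsewhere. This did not occur for the single-transcript row of Pcnt (9216 to 9232 bases in every library). How the 2 Nin transcripts were weighed is not stated, and the highest implied length lay above the longer of them. Measured on reads the forebrain difference of Nin was 0.10 on the log2 scale (SE 0.05), a ratio of 1.08, whereas the RPKM means gave 1.20.

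The remaining 4 members were lower in ribosome-bound than in total RNA in every tissue sample. Cep152, which recruits the kinase PLK4 for centriole duplication, had ratios of 0.399 to 0.478 in the forebrain and 0.667 to 0.757 in the kidney. Cep290, a protein of the ciliary transition zone, ran from 0.561 to 0.641 and from 0.841 to 0.970, with overlapping samples in the kidney. Pcm1, the core of the centriolar satellites, ran from 0.698 to 0.742 and from 0.728 to 0.790. Aspm, which focuses microtubules at spindle poles, ran from 0.751 to 0.878 and from 0.621 to 0.703, with overlapping samples in the forebrain.

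**Figure D2:**
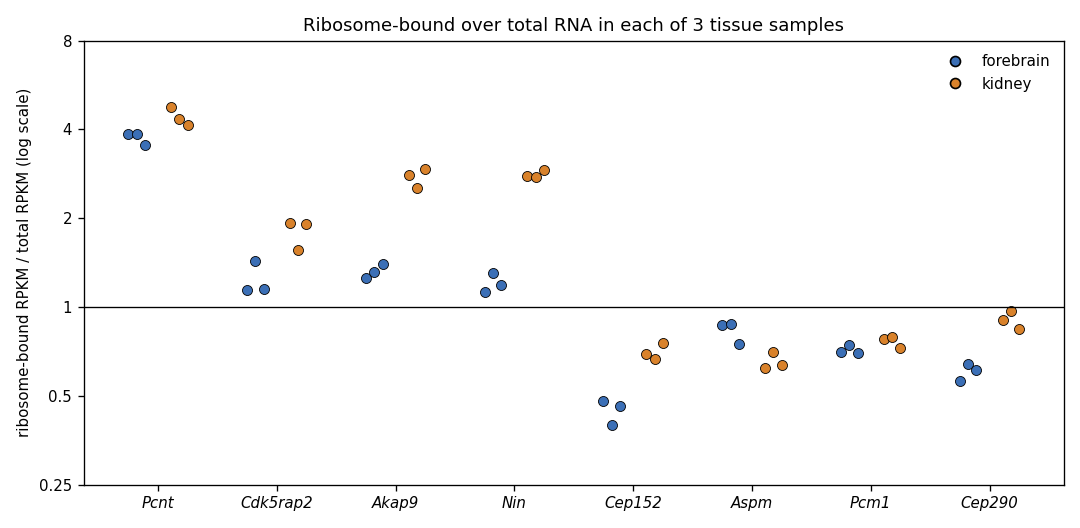
Ribosome-bound RPKM divided by total RPKM of the same tissue sample (vertical axis, log scale) for each member, with 3 forebrain and 3 kidney samples as points. The line at 1 marks equal levels. Pcnt sits at 3.53 to 4.77 in all 6 samples, Akap9, Cdk5rap2 and Nin are closer to 1 in the forebrain than in the kidney, and Cep152, Aspm, Pcm1 and Cep290 lie below 1.

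The 6 blood markers summed to 185 to 430 RPKM in the forebrain transcriptome against 98.6 to 193 in its translatome, and to 359 to 669 against 97.2 to 177 in the kidney, and their part in the ratios was not tested.

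The rule that chose the genes rests on ribosome-bound against total RNA, and the comparisons that follow, which set ribosome-bound libraries or total RNA libraries against each other, use some of the same libraries. The rule covers all 7 groups, and the genes were chosen with earlier results of these data known. Their counts and p-values below therefore describe these libraries and do not stand for genes picked beforehand. The forebrain translatome serves in the brain EC, Emx1-lineage, organ and interaction comparisons, and the kidney translatome in the kidney EC, organ and interaction comparisons, so these are not independent of each other. All 8 members were higher on the ribosomes of brain endothelial cells than in the forebrain translatome, where 24.8% of all genes were higher and 21.4% lower (edgeR quasi-likelihood test, adjusted p under 0.001, the threshold of the study). The 8 differences had a median of 0.83 on the log2 scale, against −0.01 over all genes and 0.43 over the 1844 mRNAs at least as long as the shortest member. In these bulk samples, fewer cells that carry an mRNA and less of that mRNA in each cell cannot be told apart.

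Cdk5rap2 led this comparison. It stood at 90.9, 85.7 and 120 RPKM in brain EC against 16.9, 16.6 and 14.1 in the forebrain translatome, so that the lowest EC sample was far above the highest forebrain sample. The edgeR difference was 2.93 on the log2 scale (SE 0.13, adjusted p = 2.3e-10), a 7.61-fold higher level. Nin followed on the edgeR scale, at 24.5, 23.3 and 21.8 RPKM against 14.0, 15.2 and 14.4, with a difference of 1.15 (SE 0.07, edgeR adjusted p = 1.6e-08). Its implied length was greater in brain EC (9028 to 9664 bases) than in the forebrain translatome (8041 to 8297), which the read counts do not correct for. The ratio of its RPKM means was 1.593, below the 1.705 of Aspm.

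For Pcnt the brain EC samples, at 42.8 to 50.4 RPKM, lay above the forebrain translatome samples, at 29.7 to 36.6, and the edgeR difference was 0.82 (SE 0.09, adjusted p = 3.3e-06). Akap9 stood at 74.9, 76.7 and 62.9 RPKM in brain EC against 46.4, 46.0 and 54.1, with a difference of 0.84 (SE 0.10, adjusted p = 5.2e-06). Aspm had a difference of 1.06 (SE 0.12), Cep290 of 0.80 (SE 0.10), Cep152 of 0.70 (SE 0.12) and Pcm1 of 0.64 (SE 0.08), with edgeR adjusted p-values from 4.1e-06 to 0.00024. For each of the 8 genes the 3 brain EC samples were clear of the 3 forebrain samples on the RPKM scale. The call of Cep152 was lost without forebrain translatome replicate 2 (0.61, edgeR adjusted p = 0.0011) and without replicate 3 of that group (0.66, adjusted p = 0.0018).

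In the kidney 5 of the 8 members were higher on endothelial ribosomes than in the whole-organ translatome, and all 8 estimates were positive, beside 16.7% of all genes higher and 15.0% lower. Pcnt led here, at 125.6 to 169.2 RPKM against 54.1 to 63.4, with an edgeR difference of 1.69 (SE 0.11, adjusted p = 3.4e-07), a 3.22-fold higher level. Akap9 stood at 90.9, 53.9 and 73.4 RPKM against 39.8, 36.6 and 41.3, with a difference of 1.25 (SE 0.16, adjusted p = 4.4e-05). Cdk5rap2 stood at 61.6, 53.9 and 76.8 RPKM against 40.9, 33.1 and 37.1, with a difference of 1.15 (SE 0.13, adjusted p = 1.8e-05).

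The 3 kidney EC samples of these genes did not overlap with the kidney translatome, and kidney EC replicate 2 was the lowest of its group for each of them. Aspm (0.82, SE 0.08) and Nin (0.71, SE 0.07) also passed, whereas Cep290 (0.57, SE 0.16, edgeR adjusted p = 0.0098), Pcm1 (0.43, SE 0.09, adjusted p = 0.0022) and Cep152 (0.10, SE 0.07, adjusted p = 0.25) did not. On the RPKM scale, which carries no composition factor, the Cep152 samples of kidney EC (4.96 to 5.02) lay below those of the kidney translatome (5.72 to 6.11). Without kidney EC replicate 2, 7 members passed, since Pcm1 (0.52) and Cep290 (0.74) then did. Over the fits that left out 1 sample, 2292 to 3127 genes were higher, against 3163 with all samples. The median of the 8 was 0.76, beside −0.04 over all genes and 0.24 over the 1843 long mRNAs.

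Markers of other cell types moved in kidney EC as well. Of 6 pericyte markers 2 were higher, Cspg4 (73.9 ± 5.22 against 23.8 ± 3.87 RPKM, SD, n = 3; 1.99, edgeR adjusted p = 8.6e-08) and Abcc9 (1.11), and 4 were lower, and their sum was 102 to 114 RPKM against 117 to 132 in the kidney translatome, with none at 0. In brain EC 2 were higher, Cspg4 (2.58) and Anpep (0.78), and 4 lower, with a sum of 22.5 to 27.8 against 40.9 to 53.5. Of 6 kidney markers 5 were lower in kidney EC and 1 was higher, Nphs1 of podocytes (7.97 ± 1.34 against 3.31 ± 0.656 RPKM; 1.63, adjusted p = 4.2e-06). The part of these cells in the member differences was not tested.

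**Figure D3:**
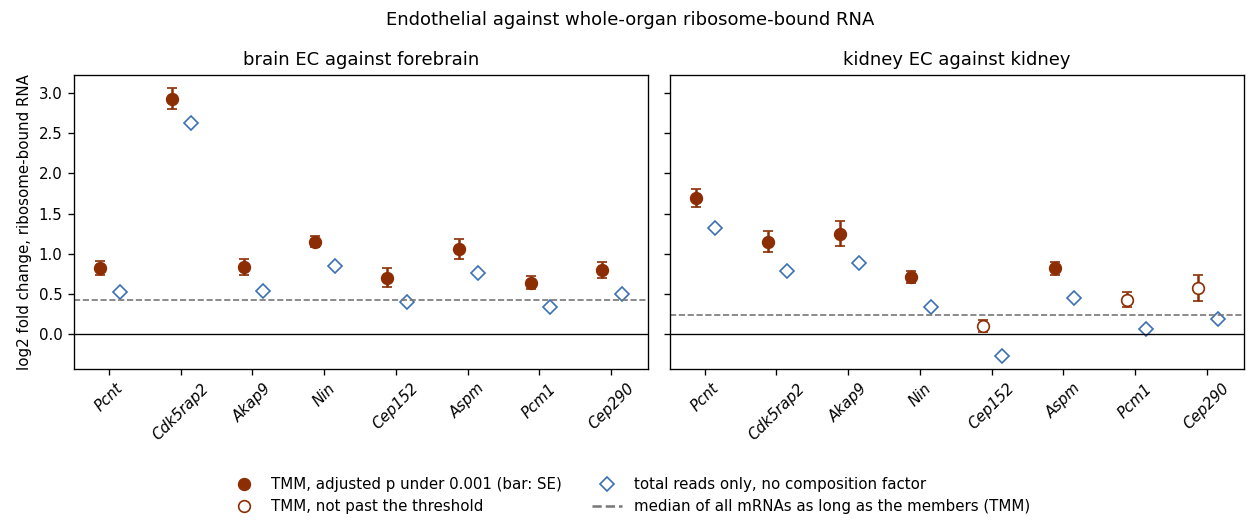
Log2 fold change of each member between the endothelial and the whole-organ translatome (vertical axis) in the forebrain and the kidney. Circles are edgeR estimates with TMM scaling and SE bars, filled when the adjusted p was under 0.001, diamonds are estimates on read totals alone, and the dashed line is the median of all mRNAs at least as long as the shortest member. Cdk5rap2 stands at 2.93 in the forebrain and Pcnt at 1.69 in the kidney, and only Cep152 in the kidney changes sign with the scaling.

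The size of the endothelial differences depended on the scaling. Scaling by read totals alone, in place of TMM factors, moved the median of all genes to −0.30 in the forebrain and −0.41 in the kidney and lowered the share of higher genes among those called from 53.7% to 36.1% and from 52.7% to 21.7%. On that scale 6 members were higher in brain EC, without Cep152 (0.40) and Pcm1 (0.34), and 4 in kidney EC, without Nin (0.34), and Cep152 was at −0.27 in kidney EC. Beside them, 3397 of 19103 genes were higher in brain EC and 1564 of 18940 in kidney EC. Pcnt kept its call at 0.52 and 1.32, and Cdk5rap2 at 2.63 and 0.78. The deposited RPKM values carry no such factor, so their ratios are smaller than the edgeR folds, for Pcnt 1.44 in the forebrain and 2.52 in the kidney.

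Whether the endothelial difference of a gene differed between the organs was tested as an interaction over 12 samples. It was larger in the forebrain than in the kidney for Cdk5rap2, by 1.81 on the log2 scale (SE 0.20, edgeR adjusted p = 9.7e-07), and smaller for Pcnt, at −0.84 (SE 0.16, adjusted p = 0.00032), where 16.5% of all genes had a larger and 8.60% a smaller difference in the forebrain. The median of all genes in this comparison was 0.16. All 8 endothelial markers also had a larger difference in the forebrain, with a median of 1.5, so such a difference was not particular to Cdk5rap2. These markers summed to 117 to 133 RPKM in the forebrain translatome and 355 to 378 in the kidney translatome. The part of that gap in the interaction was not tested. The Pcnt call was lost in 4 of 12 fits that left out a sample, those without forebrain translatome replicate 1, brain EC replicate 3, kidney translatome replicate 2 or kidney translatome replicate 3, with values of −0.75 to −0.83 and adjusted p from 0.0011 to 0.0015. The 6 other members did not pass, with values from −0.38 for Akap9 to 0.62 for Cep152. Cep152 passed without forebrain translatome replicate 1 (0.75, adjusted p = 0.00040) and Nin without brain EC replicate 3 (0.53, adjusted p = 0.00060).

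Set directly against each other, brain EC held less Pcnt than kidney EC, with a difference of −1.61 on the log2 scale (SE 0.12, edgeR adjusted p = 6.7e-07), which is 3.06-fold lower. Nin was lower, at −1.28 (SE 0.08, adjusted p = 2.7e-07) and Cep152 at −1.06 (SE 0.10, adjusted p = 3.7e-06), so 3 members were lower and 0 higher, beside 16.9% and 20.1% of all genes. At an unadjusted p under 0.05 Cdk5rap2 was the 1 member higher, a threshold that 12135 of 19238 genes passed in either direction. Cdk5rap2 was at 0.66 (adjusted p = 0.0034) and Cep290 at −0.77 (adjusted p = 0.0013), short of the threshold. EC samples of the same number deviated together (correlations of 0.42, 0.21 and 0.19), though the study's sample list does not state that they shared embryos. With the replicate number as a block, taken on these correlations alone, both passed edgeR, Cdk5rap2 at 0.67 (adjusted p = 4.8e-05) and Cep290 at −0.75 (adjusted p = 0.00018). Both genes also passed with DESeq2. Cdk5rap2 also passed without kidney EC replicate 3 (0.83) and Cep290 without kidney EC replicate 2 (−0.94). Akap9, Aspm and Pcm1 overlapped between the EC groups, with differences of 0.01 to 0.06 and SE of 0.10 to 0.17.

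The kidney held more of most scaffold mRNAs than the forebrain in total RNA already. In the forebrain transcriptome 5 members were lower and 1 higher than in the kidney transcriptome, beside 26.3% and 27.2% of all genes. Akap9 was the exception, at 37.0, 35.0 and 38.6 RPKM in the forebrain against 14.2, 14.5 and 14.1 in the kidney (1.56, SE 0.05, edgeR adjusted p = 3.7e-10). Cep152 was lower, at −0.93 (SE 0.08), Cdk5rap2 at −0.49 (SE 0.09), Aspm at −0.46 (SE 0.07), Pcnt at −0.43 (SE 0.06) and Nin at −0.22 (SE 0.03). The Cdk5rap2 call was lost without forebrain transcriptome replicate 3 (−0.47, adjusted p = 0.0018). Cep290 was at −0.33 (adjusted p = 0.020) and passed without forebrain transcriptome replicate 1 (−0.47, adjusted p = 0.00082).

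Between the translatomes 5 members were again lower in the forebrain and 1 higher, beside 26.2% and 27.2% of all genes. Nin was lower, at −1.63 (SE 0.06, edgeR adjusted p = 1.8e-11), at 14.0 to 15.2 RPKM against 44.4 to 46.8, and Cep152 at −1.56 (SE 0.11). Cdk5rap2 was lower, at −1.02 (SE 0.08), Cep290 at −0.91 (SE 0.11) and Pcnt at −0.65 (SE 0.08, adjusted p = 1.1e-05). Akap9 was higher by 0.52 (SE 0.08, adjusted p = 4.5e-05), a call that was lost without forebrain translatome replicate 1 (0.55, adjusted p = 0.0010) and with read totals alone (0.32, adjusted p = 0.0018), a scaling that moved the median of all genes by about −0.2 in both organ comparisons.

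Within the forebrain the Emx1 lineage held more Cdk5rap2 than the whole-forebrain translatome. Cdk5rap2 stood at 25.8, 27.3 and 26.7 RPKM against 16.9, 16.6 and 14.1 (0.80, SE 0.06, edgeR adjusted p = 5e-08), and Nin at 18.5, 18.2 and 19.3 against 14.0, 15.2 and 14.4 (0.40, SE 0.05, adjusted p = 1.2e-05). These were the 2 of 8 members called, and all 8 estimates were positive, beside 9.20% of all genes higher and 12.8% lower. With DESeq2 4 were higher, Akap9 and Cep152 being added, beside 2181 of 19006 genes. By edgeR, Akap9 passed without forebrain translatome replicate 3 (0.34), Cep152 without forebrain translatome replicate 1 (0.60) and Aspm without Emx1-lineage replicate 1 (0.53). Pcnt differed by 0.04 (SE 0.08, adjusted p = 0.67), with overlapping samples. In the same libraries the 6 ventral telencephalon markers summed to 53.0 to 56.4 RPKM against 212 to 231, and the 8 endothelial markers to 11.8 to 14.1 against 117 to 133, and their part in these differences was not tested. Read totals alone lowered the share of higher genes among those called here from 41.7% to 29.9% and left the same 2 members called. Of 19006 genes 1183 were then higher.

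Aspm and Pcm1 had the narrowest ranges, with the highest group mean 1.88 and 1.56 times the lowest. Aspm was highest in the kidney transcriptome at 18.3 ± 0.507 RPKM and lowest in the forebrain translatome at 9.73 ± 1.44 (SD, n = 3). The 12 genes of the mitosis list, such as Mki67, Cdk1 and Top2a, summed to 841 to 891 RPKM in the kidney transcriptome, 809 to 858 in kidney EC, 722 to 783 in the kidney translatome, 427 to 490 in brain EC, 386 to 442 in the forebrain transcriptome, 347 to 401 in the Emx1 lineage and 303 to 357 in the forebrain translatome. The groups at the 2 ends of that order were those of Aspm, but the groups between them stood in another order. Aspm was at 16.6 RPKM in brain EC and at 12.0 in the kidney translatome. Between the EC groups 11 of 12 mitosis genes were lower in brain EC (median −0.88), beside 16.9% of all genes, whereas Aspm was at 0.05. The part of dividing cells in the member differences was not tested.

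The profile of Pcnt over the 7 groups was compared with those of 10067 mRNA rows with a mean RPKM of at least 5, as the root mean square difference of centred log2(RPKM + 1) group means. The nearest was Cltc, the clathrin heavy chain (0.27), which ran from 84.4 RPKM in the forebrain transcriptome to 1063 in kidney EC. It was followed by Crocc (0.37), which encodes rootletin of the ciliary rootlet and centrosome linker, and Lars2 (0.57), a mitochondrial leucyl-tRNA synthetase. Crocc went from 11.3 RPKM in the forebrain transcriptome and 15.7 in the kidney transcriptome to 36.4 in brain EC and 108 in kidney EC. The rows nearest to Aspm were Obfc1 (0.09), Ogdh (0.11) and Gmppb (0.11).

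**Figure D4:**
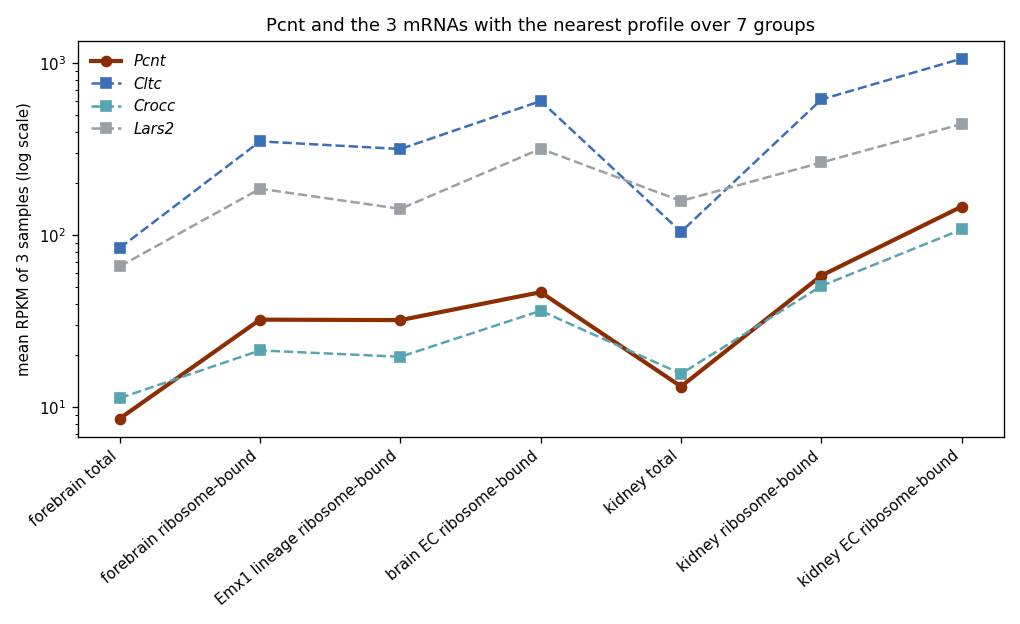
Mean RPKM of 3 samples (vertical axis, log scale) of Pcnt and the 3 mRNAs with the nearest profile in the 7 groups. The 4 lines are lowest in a transcriptome and peak in kidney EC, where Pcnt reaches 147, Crocc 108, Lars2 443 and Cltc 1063 RPKM.

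Other genes of the centrosome were found in both directions. Their counts stand beside 24.8% of all genes higher and 21.4% lower in brain EC, and 16.7% and 15.0% in kidney EC, and a list near these shares is no result about the list. With read totals alone, 3397 of 19103 genes were higher and 6002 lower in brain EC, and 1564 of 18940 higher and 5655 lower in kidney EC. Of 13 genes for the pericentriolar material and gamma-tubulin complexes, 5 were higher and 2 lower in brain EC than in the forebrain translatome, and 2 were higher and 1 lower in kidney EC (15.4% and 7.69%). Cep192, a scaffold that recruits pericentrin and PLK4, stood at 47.0 ± 4.60 RPKM in brain EC against 9.39 ± 0.535 in the forebrain (SD, n = 3; 2.61, edgeR adjusted p = 1.9e-11) and Pde4dip (myomegalin), a paralogue of Cdk5rap2, at 104 ± 1.73 against 40.8 ± 2.13 (1.79, adjusted p = 1.9e-10). Tubg2, the gamma-tubulin gene expressed mainly in brain, was lower in brain EC (−2.42) and Mzt1, a small subunit of the gamma-tubulin complex, was lower in both EC groups (−1.15 and −0.75).

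Of 17 genes for centriole duplication, 7 were higher and 3 lower in brain EC (41.2% and 17.6%) and 6 higher and 0 lower in kidney EC, with Cep135, a cartwheel protein, at 1.87 and 1.18 and Cep295 at 1.59 and 1.72. Of 15 appendage and linker genes, 6 were higher and 3 lower in brain EC and 6 higher and 2 lower in kidney EC. Cep250, the centriole linker protein C-Nap1, rose in both, to 49.98 ± 9.36 from 9.81 ± 1.16 RPKM in the forebrain (2.63, edgeR adjusted p = 9.6e-10) and to 110 ± 9.37 from 27.2 ± 6.88 in the kidney (2.37, adjusted p = 2.2e-07; SD, n = 3). With read totals alone these 2 lists, and the list for the pericentriolar material, had more or as many lower as higher genes in both organs (3 higher and 6 lower, 4 and 5, and 3 and 7 in the forebrain; 4 and 4, 2 and 5, and 0 and 5 in the kidney), while the calls named here held for Pde4dip, Cep135, Cep295 and Cep250, and that of Cep192 in brain EC (it was not among the calls in kidney EC on that scale, at 0.51).

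Of 16 genes of the ciliary transition zone, 9 were lower (56.2%) and 1 higher (Cc2d2a, 0.77) in brain EC, and 7 were lower (43.8%), 0 higher and 9 not called in kidney EC, with Tmem231 at −1.38 and −1.59. With read totals alone 11 and 12 were lower, beside 6002 of 19103 genes in brain EC and 5655 of 18940 in kidney EC. Cep290, the member of that compartment, was at 0.80 and 0.57. Of 10 genes of the centriolar satellites, where Pcm1 belongs, 1 was higher and 2 lower in brain EC and 1 higher and 3 lower in kidney EC, and 0 higher and 6 and 4 lower with read totals alone. The list of 5 other mRNAs known to be found at the centrosome held 3 higher and 1 lower gene in brain EC and 3 higher and 0 lower in kidney EC, led by Cep350 at 2.06 and 2.11, and the lower gene was Hmmr (−0.80).

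Of 11 spindle pole and microcephaly genes, 7 were higher and 1 lower in brain EC and 7 higher and 0 lower in kidney EC, with Cit (citron kinase, of the midbody) at 1.77 and 1.71 and Cenpe (a kinetochore motor) at 1.41 and 0.84, and with read totals alone 3 were higher in each. Of the 12 mitosis genes 10 and 11 were higher and 0 lower, and with read totals alone 6 and 3 were higher. On that scale 3397 of 19103 genes were higher in brain EC and 1564 of 18940 in kidney EC. Of the 11 other A-kinase anchoring proteins 5 were higher in each EC group, with 1 and 0 lower, and Akap2 stood at 3.58 in brain EC and 1.06 in kidney EC.

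**Figure D5:**
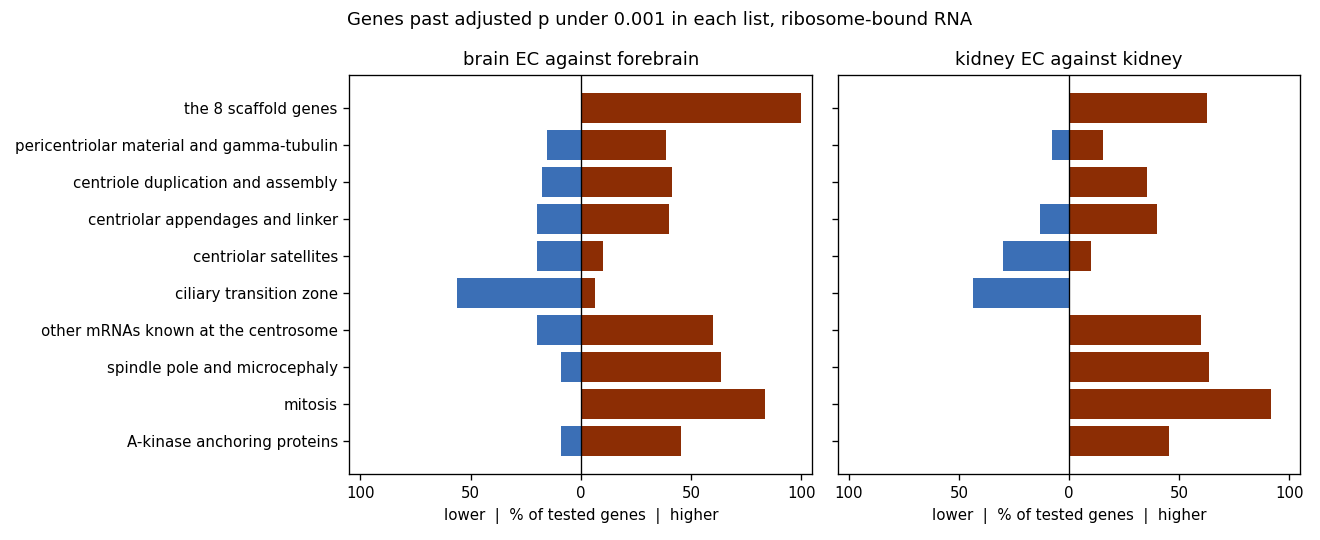
Share of the tested genes of each list that were higher (right of 0) or lower (left of 0) in the endothelial than in the whole-organ translatome at an edgeR adjusted p under 0.001 with TMM scaling, in the forebrain and the kidney. On this scaling all 8 scaffold genes are higher in the forebrain and 5 of 8 in the kidney, 10 and 11 of 12 mitosis genes are higher, and 9 and 7 of 16 genes of the ciliary transition zone are lower.

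Set against total RNA, 18.6% of all genes were higher and 18.5% lower in the ribosome-bound RNA of the forebrain, and 14.9% and 15.8% in that of the kidney (edgeR, adjusted p under 0.001). These fits did not use the pairing of the tissue samples. With the replicate number as a paired block, 4500 genes were higher and 4433 lower in the forebrain, in place of 3625 and 3596. In the kidney 4636 were higher and 4860 lower, in place of 2880 and 3049. The list counts that follow are from the unpaired fits. The list of the pericentriolar material had 5 higher and 6 lower of 13 in the forebrain and 3 and 6 in the kidney. Of the 15 appendage and linker genes 2 were higher and 10 lower in the forebrain, and 5 and 5 in the kidney. Crocc, picked as the largest called rise of that list in each organ, is described by its values. It stood at 21.4 ± 2.86 against 11.3 ± 0.548 RPKM in the forebrain (a difference of 0.96) and 50.7 ± 2.60 against 15.7 ± 0.332 in the kidney (1.69, SD, n = 3). Hmmr, a spindle protein whose mRNA is also found at centrosomes, was higher by 1.11 and 0.46, and Mzt1 by 0.83 and 0.98. The list of spindle pole and microcephaly genes had 0 higher and 8 of 11 lower in the forebrain and 1 higher (Cit, 1.42) and 9 lower in the kidney, with Spag5 (astrin) at −1.62 and −1.33. Of the A-kinase anchoring proteins 7 and 5 of 11 were lower, including Akap8l (−1.42 and −1.56) and Akap12 (−2.03 and −1.07), and 2 and 3 were higher. Centriole duplication genes had 2 higher and 8 lower of 17 in the forebrain and 4 higher and 8 lower in the kidney.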

How the data were processed

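RNA from 21 samples was sequenced after TruSeq library preparation. The authors mapped the reads to GRCm38 (mm10) with RUM and counted them on UCSC refGene transcripts with rpkmforgenes. Each deposited table holds, per row, the read counts and the RPKM values that the authors scaled by transcript length and by reads on mRNA rows. Whether strand was used is not given in the sources used here, so reads of overlapping or antisense genes may be shared.

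Counts were fitted pairwise with edgeR 4.0.16 (quasi-likelihood test, TMM, rows with at least 1 read, Benjamini-Hochberg over all rows, call at adjusted p under 0.001, the threshold of the study), and the interaction over 12 samples. The code was tested on simulated data. Alternatives were RLE factors, read totals alone, DESeq2 1.42.0, at least 10 reads in 3 samples, a replicate block and leaving out each sample. P-values reflect the spread between pools of tissue.

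Members and gene lists were chosen with earlier results of these data known. Named genes are the members, the up to 2 largest called rises and falls of a list in a comparison, from which examples are given, and the 3 nearest profiles of Pcnt and Aspm. Numbers pair the samples of transcriptome and translatome, which come from the same tissue per the study's sample list (correlations of deviations 0.39 to 0.69), and every EC pair also correlated. The sample list does not state a pairing of the EC samples, so a block there rests on the correlations alone.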

Additional observations from a re-analysis of the deposited data

Results flagged for a closer look

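The test between organs singled out 2 members whose endothelial difference was not the same in the forebrain and the kidney (edgeR interaction term over 12 samples). For Cdk5rap2 the difference between EC and whole-organ translatome was larger in the forebrain by 1.81 on the log2 scale, and for Pcnt it was smaller there, at −0.84. The Pcnt call was lost in some fits that left out 1 sample, such as forebrain translatome replicate 1 (−0.75, edgeR adjusted p = 0.0015). Forebrain against kidney, Cdk5rap2 was at −1.02 between the whole-organ translatomes. Between the EC groups it was at 0.66, not called without a block. All 8 endothelial markers also had a larger difference in the forebrain (median 1.5), beside 16.5% of all genes, so the direction was not particular to Cdk5rap2. None of these 12 libraries shared a lane with one of the other organ. The part of lane, of the neural markers seen in brain EC and of the kidney and pericyte markers seen in kidney EC was not tested.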

How the results depend on the processing

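Over 9 comparisons and 8 members, RLE factors and the filter of 10 reads in 3 samples kept the direction and the side of the threshold of every member, apart from Cep290 between the EC groups, which passed with RLE (−0.77, edgeR adjusted p = 0.00099). Without a composition factor, values that had not passed changed sign for Pcm1 between the transcriptomes (−0.15), Cep152 in kidney EC (−0.27), Akap9 between the EC groups (−0.01) and Pcnt in the Emx1 lineage (−0.01), 0 members were higher in the forebrain than in the kidney translatome, 2 had a larger endothelial difference in the forebrain, and over all genes 1564 were higher and 5655 lower in kidney EC, against 3163 and 2837. With DESeq2 1 member was higher in brain EC than in kidney EC and 4 in the Emx1 lineage, and over all genes 2735 had a smaller endothelial difference in the forebrain against 1700, so that 55.5% of calls were larger against 65.7%. The filter of 10 reads left 1164 genes higher in the Emx1 lineage against 1749. Without a composition factor, 4322 of 19241 genes were higher in the forebrain than in the kidney translatome. On that scale 3488 of 19764 had a larger endothelial difference in the forebrain. With DESeq2, 4450 of 19238 genes were higher in brain EC than in kidney EC and 2181 of 19006 in the Emx1 lineage.

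With the replicate block, 1 member was higher in brain EC than in kidney EC, and over all genes the kidney translatome had 4636 genes higher and 4860 lower than its transcriptome (2880 and 3049 without the block). Between the EC groups, where the pairing rests on correlations alone, 3727 of 19238 genes were higher with the block. The numbers did not pair the samples of the comparisons of either EC group or the Emx1 lineage with a whole organ, or those between organs, and the block changed no member's call there, though 1116 genes in place of 1749 were higher in the Emx1 lineage.

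Leaving out 1 sample at a time, the members higher ranged from 0 to 1 between the translatomes, from 0 to 1 between the EC groups and from 1 to 2 in the interaction, and the members lower in the interaction from 0 to 1. Over all genes, 4374 to 5014 were higher between the translatomes and 3324 to 3709 between the EC groups. In the interaction 2866 to 3243 had a larger and 1434 to 1654 a smaller difference in the forebrain. Ranges that crossed 0 were those of Pcm1 between the transcriptomes (−0.04 to 0.10), of Akap9 (−0.16 to 0.21), Aspm (−0.02 to 0.18) and Pcm1 (−0.03 to 0.13) between the EC groups and of Pcnt in the Emx1 lineage (−0.04 to 0.14), and none of these passed with all samples. The 3 nearest profiles of Pcnt and of Aspm were the same genes with a pseudocount of 0.1 and with a mean RPKM of at least 1. The fewest reads, and so the largest counting error, were those of Cep152.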
